A study of Mus musculus with 6 samples.

Results

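The extracellular matrix genes described here are the mouse genes for collagen chains, laminin chains, fibrillins, fibulins and fibronectin. They were chosen by gene symbol among the protein-coding genes of the mm10 annotation, with at least 60 reads summed over all pools. These families hold 62 genes, of which 47 reached the minimum, among 21995 protein-coding genes in the files. The gene Col4a3bp, whose symbol begins like a collagen's, encodes a lipid transfer protein and was left out. The study measured RNA from mouse embryo heads taken on embryonic day 8.5, and each sample was a pool of 3 heads. The 3 wild-type pools are called WT in the genotype entries. The 3 mutant pools are titled homozygous null and entered as Sf3b4 NCC mutant, where NCC stands for neural crest cells, and heads were collected before their shape became abnormal. The Cre line behind the deletion, the genetic background and the litters of the pools were not given in the sources used here, so p-values reflect only how far these pools differ from one another, which may be technical. Sf3b4 encodes a subunit of the spliceosome's SF3B complex.

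The matrix outside cells takes different forms. Basement membranes are thin sheets under epithelia and around vessels, built on networks of type IV collagen and laminin, and laminins are trimers of an alpha, a beta and a gamma chain. Between cells lie fibrils of collagens such as types I, II, III, V and XI, microfibrils of fibrillin, and fibronectin, which cells bind through integrins. Neural crest cells of the embryonic head migrate through a fibronectin-rich matrix and along basement membranes.

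Total counts per pool ran from 6930827 to 12251910, and the matrix genes together were deeply read, with 32548 reads for Fn1 alone. Of 14008 genes tested over all pools, 371 were higher and 543 lower in the mutant pools. Sf3b4 itself was at 77.7, 72.8 and 63.9 CPM in the wild-type pools and 56.1, 64.2 and 60.9 CPM in the mutant pools, with overlap, and was not called (log2 fold change -0.24, edgeR adjusted p = 0.128). Wild-type pool 1 and mutant pool 3 each held a single read (1) from 4 Y-linked genes, and the remaining pools held from 344 to 664. In whole heads, fewer cells of a type and less RNA per cell cannot be told apart.

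The matrix genes that changed were all lower in the mutant pools. Of the 46 that could be tested, 6 fell, none rose and 40 did not pass the threshold (quasi-likelihood test of edgeR with Benjamini-Hochberg adjustment over all tested genes, threshold 0.05). The genes that fell were Col1a2 and Col5a1 among the fibrillar collagens, Lama4 among the laminins, Fbln2, Fbn1 and Fn1. That is 13.0% of the tested matrix genes, beside 3.88% of all tested genes called lower. None of the 46 rose, beside 2.65% of all tested genes called higher, so 6.52% of all tested genes were called in either direction. At an adjusted p under 0.1, 10 were lower and 1 higher, beside 6.33% and 4.73% of all tested genes. The median log2 fold change was -0.12 for the matrix genes and 0.00 for all tested genes, and 34 of the 46 matrix genes had negative fold changes. In 11 of them (23.9%) every mutant pool lay below every wild-type pool, beside 14.4% of all tested genes, and in 3 (6.52%) every mutant pool lay above, beside 13.8%. Summed markers of migrating neural crest were lower in the mutant pools (243 to 287 CPM) than in the wild-type pools (338 to 373 CPM). CPM is the counts-per-million unit after TMM scaling. Sums were also lower for cranial mesenchyme (156 to 165 beside 176 to 193 CPM in wild type), where 2 of 6 genes were called lower and 2 had positive values. The cartilage and sclerotome sum, most of it Sox9, was lower too (48.3 to 52.6 beside 59.1 to 64.8 CPM). Of its 5 tested genes 2 were called lower and 3 had positive values. Sums were higher for head mesoderm (190 to 208 beside 143 to 167 CPM), surface ectoderm (569 to 622 beside 459 to 501 CPM) and endothelium (304 to 318 beside 264 to 291 CPM). The part of these cell types in the result was not tested. Matrix genes are long, and longer genes were called lower more often in these data, as set out below. The counts also moved with single pools: leaving out 1 pool gave between 1 and 11 matrix genes called lower. The fewest came without mutant pool 1 (1 of 46, beside 123 of all 14253 tested genes). The most came without wild-type pool 3 (11 of 46, beside 920 of 14297). Without wild-type pool 2 it was 2 of 47, beside 183 of 14364. Without mutant pool 2 it was 2 of 47, beside 236 of 14509, and without mutant pool 3 it was 3 of 47, beside 227 of 14490.

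**Figure D1:**
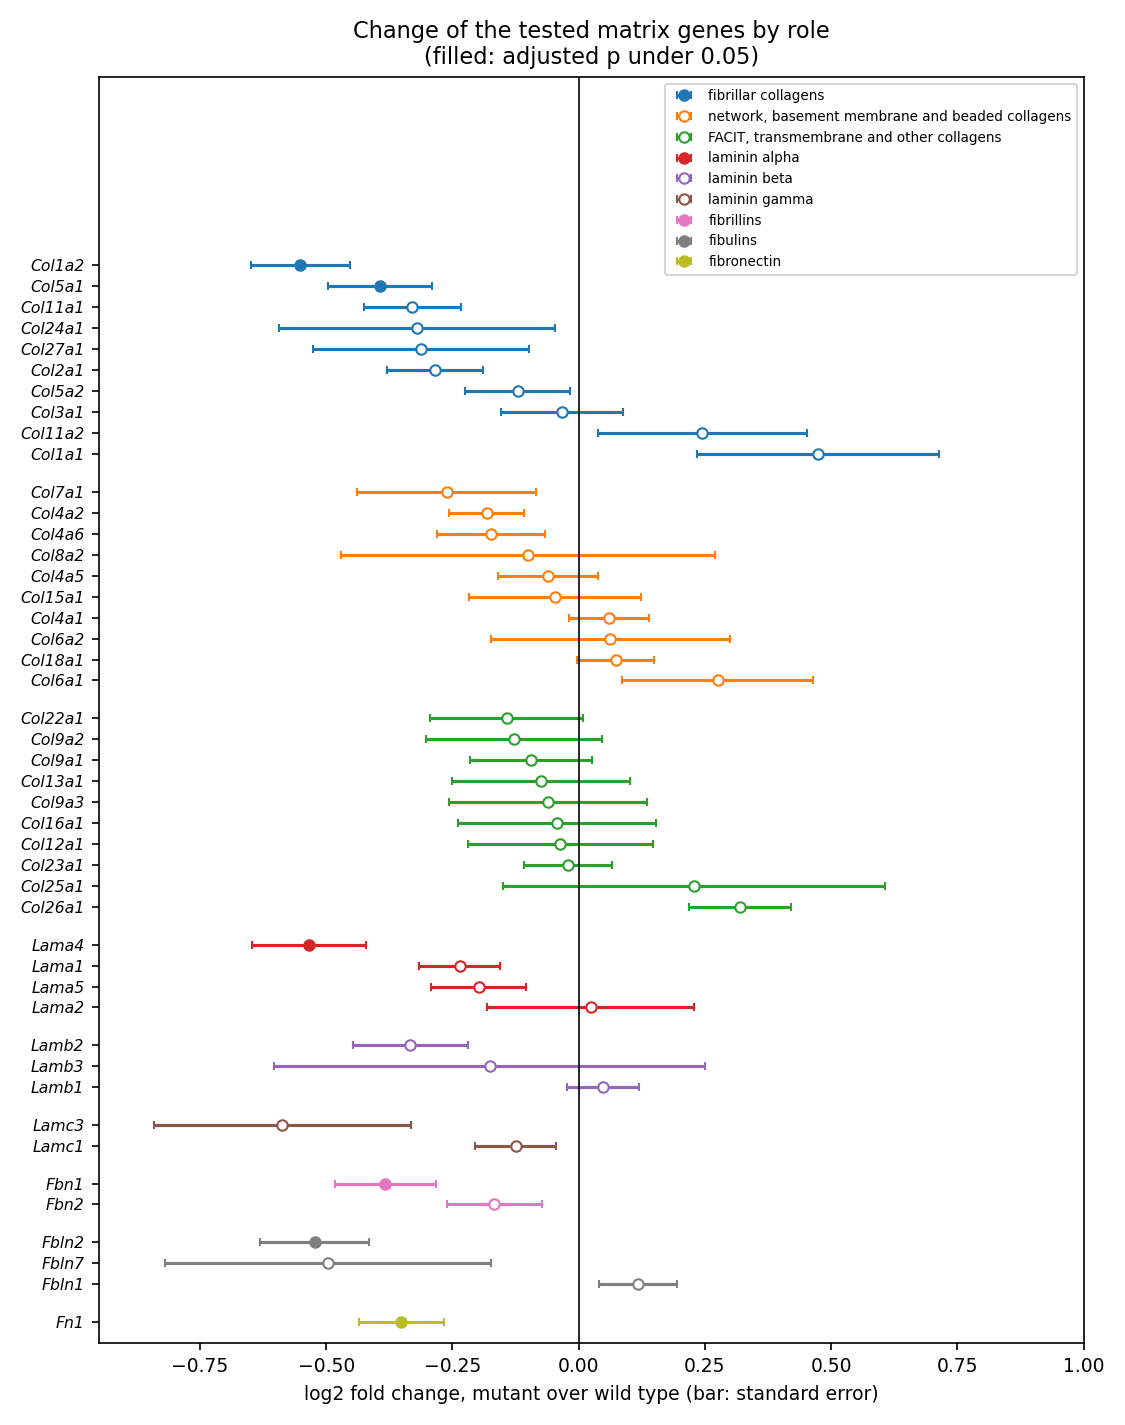
Log2 fold change of mutant over wild-type pools (x axis, with standard error bars) for 45 of the 46 tested matrix genes, grouped and coloured by role; filled circles passed an adjusted p of 0.05. The 6 filled circles all lie to the left of 0, between -0.35 and -0.55, and belong to 5 of the 9 roles.

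The promoter stretches of the fibrillar collagen genes that fell are shown because those genes moved in the same direction. Of the 6 genes that fell, 4 (Col5a1, Col1a2, Fbln2 and Fbn1) matched the RefSeq promoter table by symbol (build GRCm38.p6, the assembly of mm10). The sequences of Fbln2 and Fbn1 before the RefSeq start lie wholly within annotated exons and are not printed, and that of Col1a2 is cut to the stretch outside exons. The Col1a2 stretch lies inside the annotated gene, within an intron of a transcript that starts upstream at 4504814. Capitals mark GC boxes, searched as GGGCGG on both strands, so that CCGCCC is the same box read from the other strand. Positions count back from the RefSeq start, with -1 as the last base before it.
Col5a1, chr2:27886175-27886424, plus strand: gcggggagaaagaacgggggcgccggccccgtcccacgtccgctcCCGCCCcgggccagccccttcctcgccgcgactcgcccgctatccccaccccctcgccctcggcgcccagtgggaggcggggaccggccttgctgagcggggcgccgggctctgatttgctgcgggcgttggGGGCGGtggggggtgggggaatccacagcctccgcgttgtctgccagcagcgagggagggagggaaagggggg
Col1a2, chr6:4505370-4505492, plus strand: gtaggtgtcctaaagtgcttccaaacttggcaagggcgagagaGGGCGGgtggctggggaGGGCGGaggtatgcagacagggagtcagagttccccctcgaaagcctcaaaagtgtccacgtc
The Col5a1 stretch of 250 bases held 2 GC boxes, beginning at -205 and -73, and at least 1 such box was present in 32.7% of all 32851 promoter windows of that length. The Col1a2 stretch, from -248 to -126, also held 2, beginning at -205 and -188, where 13.3% of windows over the same positions held 1 or more. Neither stretch held the letters CCAAT or TATAAA on either strand. These occur in 33.8% and 12.4% of the 250-base windows and in 16.6% and 6.13% of those over the Col1a2 positions. The Col1a2 bases between -126 and the start were not searched, so boxes nearer to its start would have been missed. The searched motifs do not overlap one another in letters.

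Among fibrillar collagens, which assemble into the tensile fibrils of connective tissue, 2 of 10 tested genes fell and none rose, with a median log2 fold change of -0.30. Col1a2 encodes the alpha-2 chain of type I collagen (chromosome 6, 4504814 to 4541544, plus strand, mm10). It was read at 74.3, 94.1 and 72.8 CPM in the wild-type pools, and the mutant pools gave 53.7, 56.2 and 53.9 CPM. Every mutant pool lay below every wild-type pool, and the mutant pools were close together. The log2 fold change was -0.55 (SE 0.0983, edgeR adjusted p = 0.00362), with 3 pools in each group here and below. The call was kept in every one of 20 alternative settings, with log2 fold changes from -0.62 to -0.42. Among these, the filter of 1 CPM kept the same genes and the adjusted p under 0.1 only loosened the threshold. Neither of those settings could lose the call.

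Col5a1 encodes a chain of type V collagen, which sits inside type I fibrils and limits their width. Its levels were 74.0, 84.5 and 61.3 CPM in the wild-type pools and 55.7, 54.9 and 55.9 CPM in the mutant pools. The groups did not overlap, and wild-type pool 3 came nearest to the mutant pools. The log2 fold change was -0.39 (SE 0.103, edgeR adjusted p = 0.0335). The call was lost when any 1 pool other than wild-type pool 3 was left out, with limma-voom, and when the pools carrying Y-linked reads were fitted alone. The log2 fold changes of Col5a1 in those fits ran from -0.40 to -0.28, the last without wild-type pool 2. It passed when Y-linked reads entered as a covariate (edgeR adjusted p = 0.0206).

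Col11a1, a chain of the type XI collagen found with type II in cartilage, had the smallest p of the genes that did not pass. It was at 32.0, 32.2 and 34.1 CPM in the wild-type pools and 25.3, 27.8 and 25.2 CPM in the mutant pools, without overlap (log2 fold change -0.33, SE 0.0959, edgeR adjusted p = 0.0509). Col2a1, the main cartilage collagen and the most abundant fibrillar collagen here, was at 189, 213 and 157 CPM in the wild-type pools and 149, 149 and 159 CPM in the mutant pools. Its groups overlapped through wild-type pool 3, and it did not pass (-0.28, SE 0.095, adjusted p = 0.0888 by edgeR). Col5a2 (-0.12), Col3a1 (-0.03), Col24a1 (-0.32) and Col27a1 (-0.31) did not pass either, and Col11a2 (0.24) and Col1a1 (0.47) had positive values that did not pass.

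**Figure D2:**
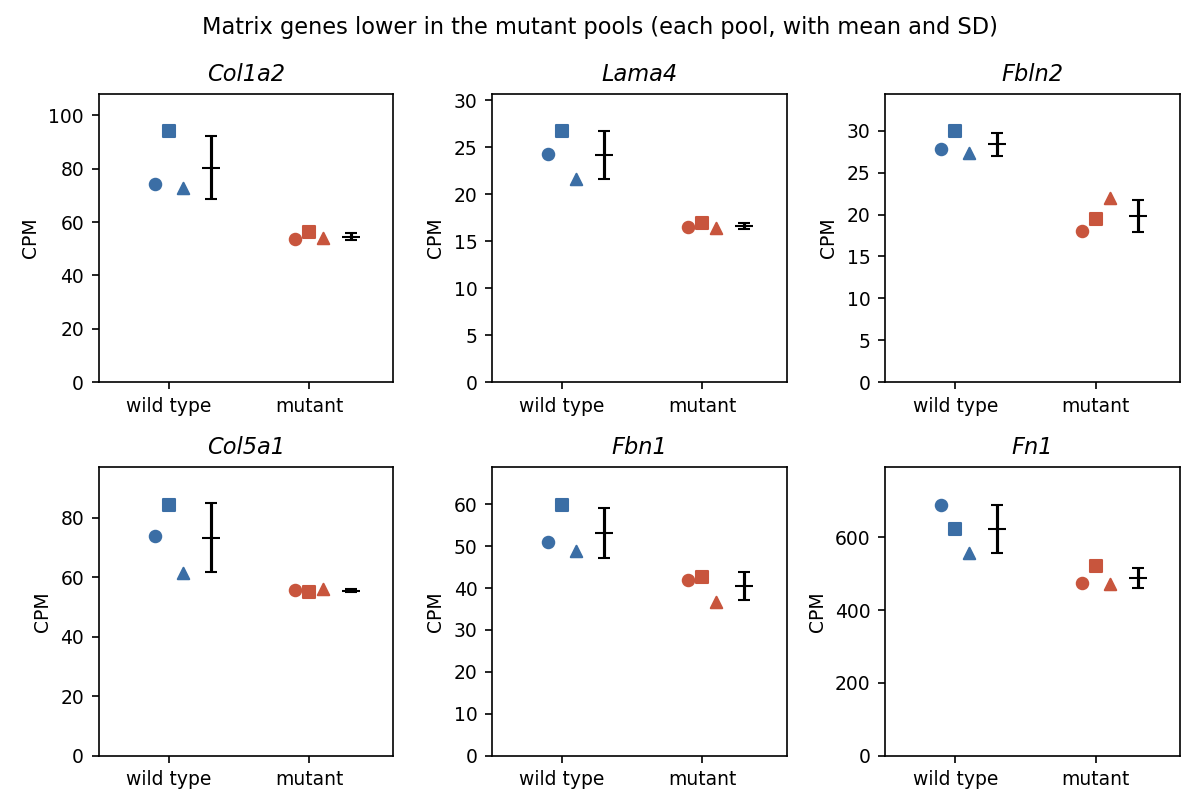
CPM in each pool (y axis from 0; circles, squares and triangles are pools 1, 2 and 3) for the 6 matrix genes called lower, with the mean and SD of each genotype in black. In each panel all 3 mutant pools lie below all 3 wild-type pools.

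Col1a1, which encodes the alpha-1 chain of type I collagen, was at 8.43, 8.76 and 4.82 CPM in the wild-type pools and 11.98, 10.5 and 7.04 CPM in the mutant pools. Its groups overlapped, and its log2 fold change of 0.47 (SE 0.24) did not pass (edgeR adjusted p = 0.26). Per kilobase of merged exons Col1a2 was 5.95 times as high as Col1a1 in the wild-type pools and 3.00 times in the mutant pools (geometric means). Using the mean length of coding transcripts instead, the wild-type ratio was 20.96. That value is a ratio of arithmetic means (25.9 over 1.24 CPM per kilobase). The arithmetic means per kilobase of merged exons were 6.47 and 1.12, so the size of the excess depends on the length used. The log2 ratio of Col1a2 to Col1a1 was 2.22, 2.504 and 2.995 in the wild-type pools and 1.24, 1.496 and 2.02 in the mutant pools. The mutant ratios lay below all wild-type ratios, and the means differed by -0.99 (wild type 2.57 ± 0.392, mutant 1.59 ± 0.394, SD, n = 3; exact permutation test, two-sided, p = 0.1). This pair was chosen after its values were seen. With 3 pools against 3 the smallest p possible is 0.1, so the design cannot reach 0.05, and adjusted over the 5 pairs compared this p was 0.25.

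**Figure D3:**
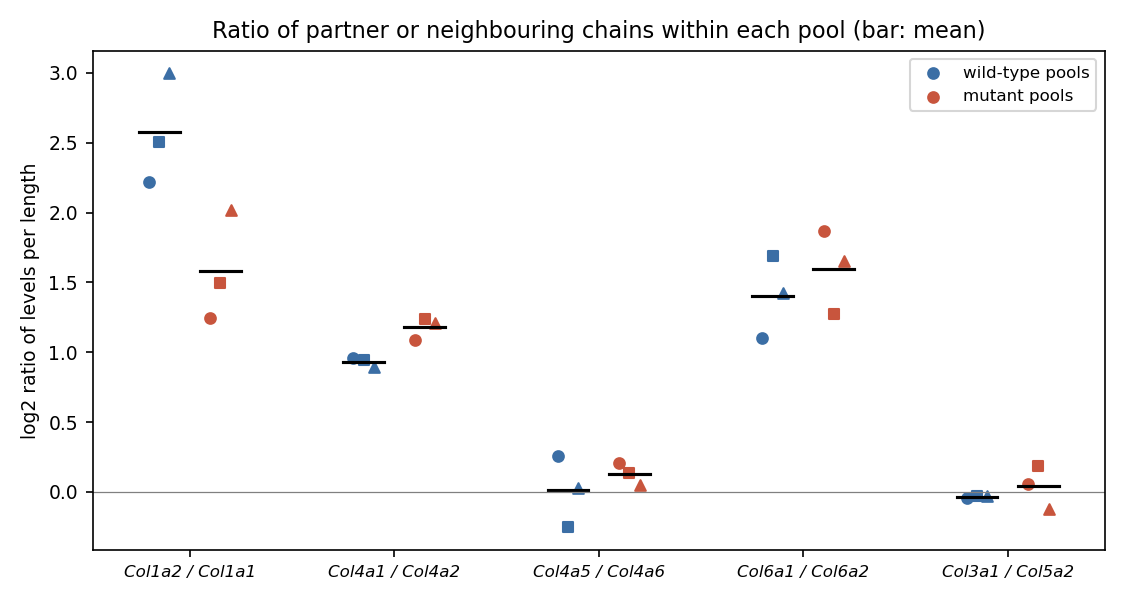
Log2 ratio of the levels per length of 5 gene pairs within each pool (blue wild-type pools, red mutant pools, black bars the mean of 3 pools). The groups separate without overlap for Col1a2 over Col1a1 (lower in the mutant pools) and for Col4a1 over Col4a2 (higher in the mutant pools), and overlap for the other pairs.

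None of the 10 tested network, basement membrane and beaded collagens passed, and their median log2 fold change was -0.05. Col4a1 and Col4a2 encode the chains of the main type IV collagen of embryonic basement membranes. They lie head to head on chromosome 8, Col4a1 at 11198423 to 11312826 on the minus strand and Col4a2 at 11312805 to 11449287 on the plus strand, so that their annotated starts are 21 bases apart. Col4a1 was at 326, 308 and 282 CPM in the wild-type pools and 310, 341 and 303 CPM in the mutant pools, and these ranges overlapped (log2 fold change 0.06, SE 0.0789, edgeR adjusted p = 0.693). Col4a2 was at 149, 142 and 134 CPM in the wild-type pools and 129, 128 and 116 CPM in the mutant pools. All its mutant pools lay below the wild-type pools, but the log2 fold change was -0.18 (SE 0.0751), short of the threshold (edgeR adjusted p = 0.158).

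The log2 ratio of Col4a1 to Col4a2, per length, was 0.96, 0.95 and 0.89 in the wild-type pools and 1.09, 1.24 and 1.21 in the mutant pools. Every mutant pool lay above every wild-type pool, with means of 0.93 ± 0.033 and 1.18 ± 0.0778 (SD, n = 3) and a difference of 0.25 (exact permutation test, two-sided, p = 0.1, the smallest possible; 0.25 adjusted over the 5 pairs). Their exons share under 1% of bases, and whether the counting used strand was not given in the sources used here.

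Col4a5 and Col4a6, another head-to-head pair on chromosome X whose starts lie 1309 bases apart, had nearly equal levels per length. They differed from wild type by -0.06 and -0.17 (log2), with overlapping ranges. Col4a3 and Col4a4, the remaining head-to-head pair, had 6 and 5 reads in all pools together and fell below the count minimum. Col6a1 and Col6a2, neighbouring genes for chains of beaded-filament type VI collagen, were low. The log2 fold change was 0.28 (SE 0.189) for Col6a1, whose mutant pools all lay above the wild-type pools, and 0.06 (SE 0.237) for Col6a2, and neither passed. Col18a1, a basement membrane collagen that carries heparan sulfate and yields endostatin, was the most abundant collagen per length. It was at 405, 369 and 345 CPM in the wild-type pools and 397, 376 and 404 CPM in the mutant pools, which gave 0.07 on the log2 scale (SE 0.0769), not past the threshold. The vessel and muscle basement membrane collagen Col15a1 (-0.05), the anchoring fibril collagen Col7a1 (-0.26) and Col8a2 (-0.10) did not pass either.

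The 10 collagens of the remaining kinds, which include fibril-associated (FACIT) and transmembrane collagens, had a median log2 fold change of -0.05, and none passed. Col26a1, which encodes a secreted protein with short collagen stretches, was at 56.0, 49.6 and 44.4 CPM in the wild-type pools and 61.6, 57.1 and 68.7 CPM in the mutant pools. Every mutant pool lay above every wild-type pool (log2 fold change 0.32, SE 0.101, edgeR adjusted p = 0.0707). It passed in some alternative settings, among them the correction for exon length and GC content (0.44, adjusted p = 0.00161 by edgeR) and the fit without wild-type pool 1. Col23a1, a transmembrane collagen, was nearly level, with means of 46.96 ± 3.27 and 46.4 ± 0.971 CPM. The type IX chains Col9a1, Col9a2 and Col9a3, which coat type II fibrils, had log2 fold changes of -0.09, -0.13 and -0.06. Col22a1 (-0.14), Col13a1 (-0.07), Col16a1 (-0.04), Col12a1 (-0.04) and Col25a1 (0.23) did not pass.

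Among laminins 1 of 10 tested chains fell, and the median log2 fold change was -0.19. Lama4, the alpha chain of vessel and mesenchymal laminins (chromosome 10), was at 24.3, 26.7 and 21.6 CPM in the wild-type pools and 16.5, 16.9 and 16.4 CPM in the mutant pools. All mutant pools lay well below the wild-type pools, with almost no spread among them. The log2 fold change was -0.53 (SE 0.113, edgeR adjusted p = 0.0114). The call was lost without wild-type pool 2, mutant pool 1 or mutant pool 2, and when the pools carrying Y-linked reads were fitted alone. In these fits, which hold fewer pools, the log2 fold change of Lama4 stayed between -0.54 and -0.46. The call was kept when Y-linked reads entered as a covariate (edgeR adjusted p = 0.00535). Summed markers of endothelium, a source of Lama4, were higher in the mutant pools (304 to 318 CPM) than in the wild-type pools (264 to 291 CPM). Of these 8 markers, 6 had positive and 2 negative log2 fold changes. Only Kdr passed, with means of 93.5 CPM in the wild-type and 116 CPM in the mutant pools. The part of these markers in the Lama4 result was not tested.

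The other alpha chains did not pass. Lama1, the alpha chain of the earliest embryonic basement membranes, was at 162, 165 and 145 CPM in the wild-type pools and 132, 144 and 124 CPM in the mutant pools, with the groups just apart (log2 fold change -0.24, SE 0.0802, edgeR adjusted p = 0.0918). Lama5, the alpha chain of most later epithelial and vessel laminins, had a log2 fold change of -0.20 (SE 0.0934), and Lama2, of muscle and nerve, 0.02 (SE 0.204). Per length, Lama1 (16.2) and Lama5 (13.4 CPM per kilobase of merged exons, wild-type means) supplied most of the alpha chain RNA, beside 2.01 for Lama4 and 0.261 for Lama2.

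Of the beta and gamma chains that join these alpha chains, none passed. Lamb1 and Lamc1, the common beta and gamma chains, had the highest levels per length of the laminins, at 21.1 and 27.02 CPM per kilobase in the wild-type pools. Their log2 fold changes were 0.05 (SE 0.0718) for Lamb1 and -0.12 (SE 0.0803) for Lamc1. Lamb2, a beta chain of vessel and nerve basement membranes, was at 34.3, 36.4 and 28.1 CPM in the wild-type pools and 23.6, 27.1 and 27.6 CPM in the mutant pools. Its groups were only just apart (log2 fold change -0.33, SE 0.114, edgeR adjusted p = 0.0952). Lamb3, another beta chain, stood near the count minimum at 1.14 CPM in the wild-type and 1.05 CPM in the mutant pools. Lamc3 had the lowest fitted value of all, -0.59, but its standard error was 0.255 and its groups overlapped (edgeR adjusted p = 0.179).

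Fibronectin, microfibril and fibulin genes made up the other 3 that fell. Fn1, whose product is the main provisional matrix of the early embryo (chromosome 1, 71585520 to 71653200, minus strand), had the highest level per kilobase of merged exons in the wild-type pools. By mean coding transcript length, Col18a1 (111) and Col4a1 (109.95 CPM per kilobase) stood above Fn1 (98.6). It was at 690, 624 and 558 CPM in the wild-type pools and 473, 521 and 473 CPM in the mutant pools, so the groups did not overlap. The log2 fold change was -0.35 (SE 0.0839, edgeR adjusted p = 0.0213). The call was lost without wild-type pool 2, mutant pool 1 or mutant pool 3, with the length and GC correction combined with a replicate block, and when the pools carrying Y-linked reads were fitted alone. The log2 fold change of Fn1 was between -0.34 and -0.33 without those single pools, -0.20 with the combined correction and -0.25 when pools carrying Y-linked reads stood alone. It passed with those reads as a covariate (edgeR adjusted p = 0.00936). Fbn1, which encodes fibrillin-1, the gene product affected in Marfan syndrome, was at 50.9, 59.9 and 48.7 CPM in the wild-type pools and 41.9, 42.7 and 36.7 CPM in the mutant pools, without overlap. Its log2 fold change was -0.38 (SE 0.0998, edgeR adjusted p = 0.0324), and it was lost without wild-type pool 2 or any 1 mutant pool, with limma-voom and when the pools carrying Y-linked reads were fitted alone. Its log2 fold changes in those fits ran from -0.42 to -0.29, and Fbn1 passed when Y-linked reads were a covariate (edgeR adjusted p = 0.0105). The opposite-strand gene Gm9913 covers 20.1% of the exonic bases of Fbn1, so reads of the 2 genes may be mixed. Fbn2, the more abundant fibrillin of the embryo, had a log2 fold change of -0.17 (SE 0.0943) and overlapping groups.

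Fbln2 encodes fibulin-2, which binds fibronectin, laminins and fibrillin (chromosome 6). It was at 27.8, 29.9 and 27.4 CPM in the wild-type pools and 18.1, 19.5 and 21.9 CPM in the mutant pools. The groups lay well apart, and the log2 fold change was -0.52 (SE 0.108, edgeR adjusted p = 0.00944). The call was lost without mutant pool 1 or mutant pool 2, where the log2 fold change was -0.45 and -0.51. Fbln1, the most abundant fibulin, had a log2 fold change of 0.12 (SE 0.0776) and Fbln7 of -0.50 (SE 0.323), and neither passed. The members of each family thus gave different values, with only 1 of 2 fibrillins and 1 of 3 fibulins past the threshold; the differences between family members were not tested.

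**Figure D4:**
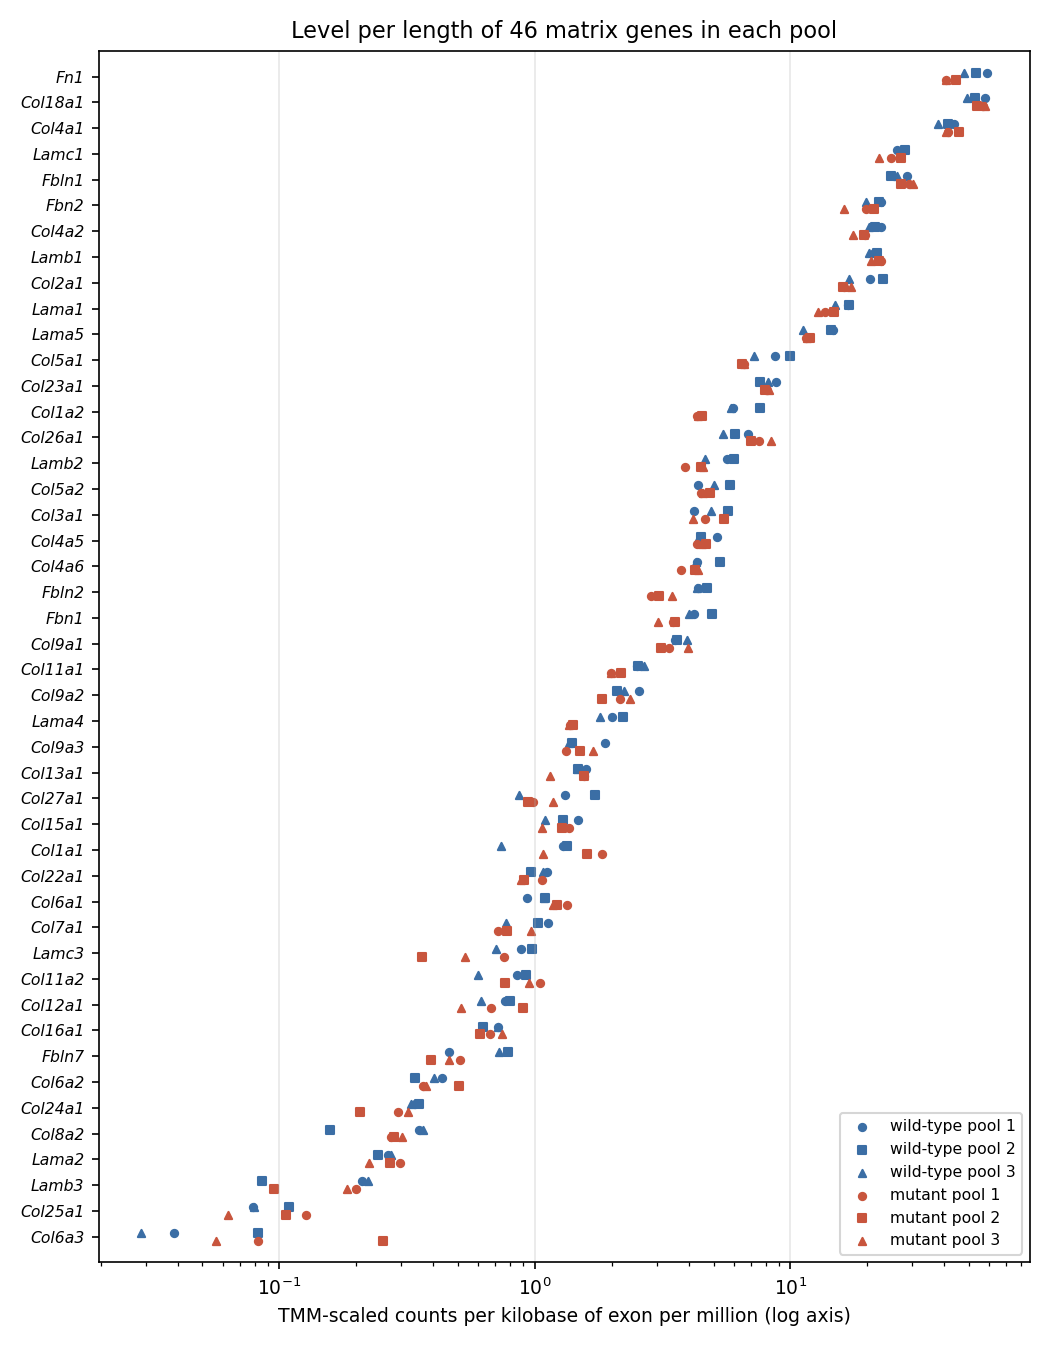
Level per length (CPM per kilobase of merged exons, log axis) for 46 of the 47 matrix genes in each pool, ordered by the wild-type mean; blue points are wild-type and red points mutant pools. Levels run from 53.4 for Fn1 to 0.0501 for Col6a3, and most genes show red and blue points mixed.

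Levels per length spanned a wide range. After Fn1 (53.4 ± 5.63 CPM per kilobase, SD, n = 3 wild-type pools) came Col18a1 (53.1 ± 4.27), Col4a1 (40.9 ± 2.99), Lamc1 (27.02 ± 0.927) and Fbln1 (26.4 ± 1.97). Fn1 and Col18a1 differed by less than the spread between pools. The next were Fbn2 (21.5), Col4a2 (21.4), Lamb1 (21.1) and Col2a1 (20.1). Lama1, Lama5, Col5a1, Col23a1, Col1a2 and Col26a1, from 16.2 down to 6.11, completed the 15 highest. Col2a1, Col5a1 and Col1a2 were the fibrillar collagens among these.

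At the low end, the genes nearest to the minimum of 60 reads were Col6a3 with 62 and Lamb3 with 67 above it, and Lama3 with 44 and Col8a1 with 35 below it. Col6a3 was the matrix gene left out of the test by the filter on low counts. It was at 0.463, 0.989 and 0.344 CPM in the wild-type pools and 0.985, 3.05 and 0.677 CPM in the mutant pools, so that mutant pool 2 alone stood far above the rest. With no filter on low counts Col6a3 was called higher (log2 fold change 1.497, SE 0.475, edgeR adjusted p = 0.0379), and in a fit without mutant pool 2 it was not (0.63, SE 0.606, edgeR adjusted p = 0.636). Of the families, 15 genes had fewer than 60 reads, and Col10a1, a marker of hypertrophic cartilage, had none.

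Exon length went with the direction of change across the whole transcriptome. When the tested genes were split by merged exon length into 5 classes of equal size, the share called lower was 1.07% in the shortest class, then 1.39%, 2.29% and 4.29%, and 10.4% in the longest, and the class medians went from 0.07 to -0.10 on the log2 scale. Matrix genes are long: 25 of the 46 tested lay in the longest class (at least 7594 bases) and 13 in the next. In the longest class 5 of 25 matrix genes fell, 20% beside 10.4% of all genes there, and their median log2 fold change was -0.17. In the next class 1 of 13 fell, 7.69% beside 4.29%, and of the 8 in shorter classes none did. Among the matrix genes themselves the rank correlation of length with fold change was -0.17 over 46 genes, and over all 14008 tested genes it was -0.21. These correlations are across genes that share the same 6 libraries, so they are descriptions only.

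A correction was made for the trend of each pool with exon length and GC content. With it, 4 of 46 tested matrix genes were lower and 2 of 46 higher. Of all 14008 tested genes, 594 (4.24%) were lower and 632 (4.51%) higher. Col1a2 (-0.43, edgeR adjusted p = 0.00324), Fbln2 (-0.45, adjusted p = 0.00969), Lama4 (-0.42, adjusted p = 0.0156) and Fn1 (-0.20, adjusted p = 0.0461) were the lower ones. Col5a1 (-0.26, edgeR adjusted p = 0.0604) and Fbn1 (-0.23, adjusted p = 0.102) no longer passed, while Col26a1 and Col18a1 (0.19, adjusted p = 0.0423) passed as higher. The median of the matrix genes with this correction was -0.04. With the correction and a replicate block together, Col1a1 and Col26a1 were the 2 higher genes. The correction removes any trend with length or GC content that the genotypes differ in, whatever its source.

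**Figure D5:**
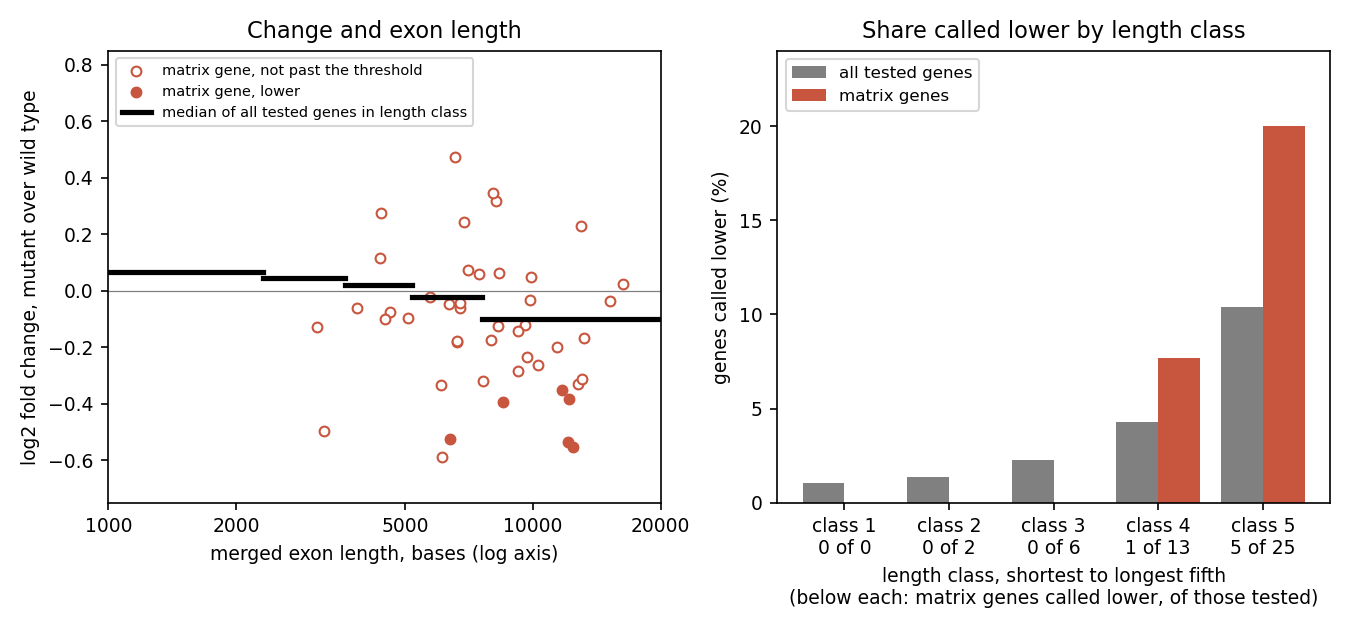
Left, log2 fold change of each tested matrix gene against its merged exon length (log axis), filled where called lower, with black bars for the median of all tested genes in each of 5 length classes. Right, percent of genes called lower in each class, all tested genes in grey and matrix genes in red; the share of all genes rises from 1.07% to 10.4%, and the matrix genes stand at 5 of 25 in the longest class.

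Of 127 tested genes on 5 lists of other matrix biology, 9 were lower (7.09%) and 4 higher (3.15%), beside 3.88% and 2.65% of all tested genes. Among 32 tested genes of collagen processing and export, Crtap, a partner of prolyl 3-hydroxylase, rose (0.39, SE 0.11) and Mia3, which loads bulky collagen into transport carriers, fell (-0.35, SE 0.0766), and the list's median log2 fold change was 0.05. That is 3.125% of this list in each direction. Of 16 other basement membrane genes 3 fell (18.8%, beside 3.88% of all tested genes) and none rose, with a median of -0.11. These were Hmcn1, a hemicentin (-0.65, SE 0.101, edgeR adjusted p = 0.00181), Agrn, the heparan sulfate proteoglycan agrin (-0.42, SE 0.0784), and Egflam, which encodes pikachurin, a ligand of dystroglycan (-0.56, SE 0.138). Hmcn1 (21191 bases of merged exons) and Agrn (9285) lay in the longest length class, where 10.4% of all genes were called lower. Egflam (6121) lay in the next class, with 4.29%. The 5 lists were not matched to all genes by exon length.

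Of 23 matrix receptor genes 3 fell (13.04%, beside 3.88% of all tested genes) and 1 rose (4.35%, beside 2.65%), with a median of 0.01. Itga4, the alpha-4 integrin subunit that binds fibronectin, went from 23.0 ± 3.72 to 8.40 ± 2.47 CPM (-1.48, SE 0.183, edgeR adjusted p = 0.000417), the largest fall among the genes past the threshold on these 5 lists. The laminin receptor subunit Itga6 fell by 0.33 (SE 0.0782) and the syndecan Sdc3 by 0.34 (SE 0.0869), while Sdc4 rose (0.38, SE 0.105). Itga4 (13978 bases of merged exons) and Itga6 (9025) lay in the longest length class, where 10.4% of all genes were called lower. Sdc3 (5989) lay in the next class, with 4.29%. Sdc4 (2547) lay in the second shortest, where 3.5% were called higher. Among 26 matrix proteases and inhibitors Adamts20, a protease of the aggrecanase family, fell (-0.81, SE 0.171), none rose, and the median was -0.04. That is 3.85% called lower, beside 3.88% of all tested genes, and Adamts20 (8997 bases) lay in the longest length class. Of 30 interstitial, elastic and matricellular genes 2 rose (6.67%, beside 2.65%) and 1 fell (3.33%, beside 3.88%), with a median of 0.03. Sparc, a collagen-binding glycoprotein gene (0.34, SE 0.0718), and the hyaluronan synthase gene Has2 (0.38, SE 0.0816) rose, and Emilin2 fell (-0.43, SE 0.0974).

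Markers of the cell types of the head moved with genotype in several lists, given here with the summed CPM of each list in the pools. Markers of migrating neural crest summed to 338 to 373 CPM in the wild-type pools and 243 to 287 CPM in the mutant pools, with Sox10, Tfap2b, Erbb3 and Ngfr lower out of 7 tested. Those of cranial mesenchyme, cells that make fibrillar collagen and fibronectin, summed to 176 to 193 and 156 to 165 CPM, with 2 of 6 lower (Pdgfra and Dlx2). Head mesoderm markers summed to 143 to 167 and 190 to 208 CPM, with 3 of 6 higher, surface ectoderm markers to 459 to 501 and 569 to 622 CPM, with 2 of 9 higher, and endothelial markers to 264 to 291 and 304 to 318 CPM, with Kdr higher among 8. Cartilage and sclerotome markers summed to 59.1 to 64.8 and 48.3 to 52.6 CPM, with Cnmd and Sox9 lower among 5 tested. Sox9 made up most of that sum (means of 45.3 CPM in the wild-type and 34.9 CPM in the mutant pools). The other 3 tested genes had positive log2 fold changes that did not pass, and the list's median was 0.04.

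The remaining lists overlapped between genotypes. Head neural tube markers summed to 395 to 424 CPM in the wild-type and 398 to 433 CPM in the mutant pools, with En1 lower among 7, so markers of the labelled tissue were read in every pool. Foregut and notochord (35.7 to 39.5 and 38.0 to 45.8 CPM), yolk sac endoderm (33.1 to 45.6 and 41.2 to 44.8 CPM), heart (13.3 to 52.4 and 23.5 to 30.9 CPM) and primitive erythroid markers (98.9 to 250 and 74.3 to 163 CPM) had no tested gene past the threshold. No listed marker was at 0 in all pools. The part of these cell types in the values of the matrix genes was not tested.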

How the data were processed

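For every pool the authors deposited a file of raw counts per Ensembl gene, whole numbers with no normalization. RNA was extracted with a Qiagen micro kit and made into Illumina TruSeq total RNA libraries, per the labels' protocols. The submitters' processing notes name mm10 as the build; the sources used here give no aligner, counter, annotation or strand setting, so overlapping opposite-strand genes can share reads. Symbols, coordinates and merged exon lengths came from GENCODE M21 (GRCm38), which matched 54495 of 54532 IDs. Groups and replicate numbers were taken from the titles. Genes were filtered with edgeR's filterByExpr and scaled by TMM. The test was edgeR's quasi-likelihood test (edgeR 4.0.16, R 4.3.3) with robust estimation, fitted on all 14008 genes and checked on simulated data. An SE is the log2 fold change divided by the square root of F. Levels per length are CPM per kilobase of merged exons. Each pool was fitted as a replicate. Counts of same-genotype pools differed beyond counting error (chi-square over its degrees of freedom, 3.01 to 10.2), which cannot show whether that spread is biological or technical. DESeq2 1.42.0, limma-voom (limma 3.58.1), other scalings and filters, left-out pools, a replicate block, Y-linked reads and a length and GC offset (splines with 4 degrees of freedom) were tried.

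The genes and lists were chosen with earlier results of these data known. Named genes are those past the threshold, the 15 highest per length, the 3 with the smallest p that did not pass, neighbours and laminin partners, those nearest to 60 reads, and up to 3 genes past the threshold per pathway list; Sdc4 and the marker genes were named outside this rule, after their values were seen. Other family members are named to account for them all, and the Col1a2 and Col1a1 pair was added after its values were seen. The values of 1 matrix gene are not reported here; it is included in the counts and medians.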

Additional observations from a re-analysis of the deposited data

How the results depend on the processing

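The count of matrix genes called lower (6) was 10 at an adjusted p under 0.1, 2 when only pools carrying Y-linked reads were fitted, and from 1 to 11 with 1 pool left out. The count called higher (0 by edgeR; 1 of the 46, Col26a1, was higher at an unadjusted p under 0.05) was 2 with no filter on low counts (Col26a1 and Col6a3), 2 with the length and GC offset, 2 with that offset and the replicate block, 1 with Y-linked reads as a covariate, 1 at an adjusted p under 0.1, and from 0 to 1 with 1 pool left out. DESeq2 and limma-voom called none higher. The median of the matrix genes (-0.12) was -0.0429 with the offset and -0.0309 with the offset and the block. Over all tested genes, 371 were higher: 739 with the Y-linked covariate, 663 at 0.1, 632 with the offset, 647 with the offset and the block, 624 with no filter, and from 107 to 890 with 1 pool left out. Lower were 543: 877 with the Y-linked covariate, 887 at 0.1, 286 when only pools carrying Y-linked reads were fitted, and from 123 to 920 with 1 pool left out. The cause of these shifts was not tested. Replicate numbers did not pair the pools (correlations of same-numbered deviations -0.161, 0.0515 and -0.0598); with the replicate block 6 matrix genes were lower and 0 higher, the median was -0.11, and 268 and 426 of all genes were called. The planned filter of 1 CPM kept the same 14008 genes; one of 3 CPM, chosen after seeing the data, left 7 matrix genes lower. With a minimum of 30 or 90 reads, 52 or 43 genes would be members, and 13 of the 15 highest levels were shared when coding transcript length was used. Genes near 60 reads carry too few counts to show changes of the size seen here.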
